A study of Drosophila melanogaster with 21 samples.

Results

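The genes described here are Keap1 and cnc, the pair that governs the fly response to oxidants, together with 7 enzymes that make glutathione or remove reactive oxygen species: Gclc, Gclm, Trxr1, Prx6a, Cat, Sod1 and Sod2. In the fly annotation Keap1 is CG3962, cnc CG43286, Gclc CG2259, Gclm CG4919, Trxr1 CG2151, Prx6a CG3083, Cat CG6871 and Sod2 CG8905. They were chosen by name with earlier results of these data known, so their counts beside those of all probesets are not an unbiased comparison. Their signal was read from each probeset annotated to that gene alone. Of the 9 genes, 8 had such a probeset, and Sod1 is not analysed here. The 8 genes were read by 9 of the 18769 probesets used, because cnc had 2 of them. Of these 9 probesets, 8 were bright enough to enter the tests, among 9858 probesets in all.

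In resting cells the Keap1 protein holds the transcription factor CncC, a product of the cnc gene and the fly counterpart of mammalian Nrf2, and hands it to a Cul3 ubiquitin ligase for destruction. Oxidants and electrophiles loosen this hold, and CncC then pairs with a small Maf protein on antioxidant response elements in front of genes for glutathione synthesis, glutathione transfer and thiol reduction. Superoxide dismutases turn superoxide, which leaks from the electron transport chain, into hydrogen peroxide, and catalase and peroxiredoxins remove the peroxide. Flies lack a glutathione reductase, and their thioredoxin reductase keeps both the thioredoxins and glutathione reduced.

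All arrays held RNA of S2 cells, an established macrophage-like Drosophila line, read on the Affymetrix Drosophila Genome 2 array. In the CoVa RNAi group the cells had been transfected by calcium phosphate with RNA against CoVa, the nuclear gene for cytochrome c oxidase subunit Va of complex IV. The GFP RNAi group, the GFP controls, had received RNA against green fluorescent protein, which the fly genome does not encode, by the same transfection. Each group had 10 arrays: experiment 1 gave a 48 hr and a 168 hr harvest, while the longer courses, experiments 2 and 3, each gave harvests at 72, 96, 120 and 168 hr. A single array of untransfected cells came from experiment 1 at 48 hr. No genotype differed between the groups, the knockdown was partial, and its depth differed between experiments. Arrays of the same experiment and time form 10 matched pairs. No label says that the harvests of one course came from separate cultures, so the p-values measure only the spread between these arrays, which may be technical.

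CoVa itself read 4177 ± 2134 on the CoVa RNAi arrays and 8176 ± 695 on the GFP controls (SD, n = 10 each), which is -1.17 on the log2 scale (limma, SE 0.28, with a Benjamini-Hochberg adjusted p of 0.00602). It was lower in 9 of 10 pairs, and the exception was the 48 hr pair, where the ratio was 1.14. The pair counts of the genes below include this pair, in which CoVa was not lower. Leaving out experiment 2, the course with the deepest knockdown, gave -0.69 with an adjusted p of 0.140. Array medians lay between 67.5 and 94.4 and the lowest value on every array was 9.60. Of 10 plasmatocyte markers 6 averaged 100 or more, Hml, NimC1, He and Sr-CI did not, and the summed signal of the list ran between 2830.0 and 7105 on CoVa RNAi arrays and between 2816 and 7227 on GFP controls. The sums of the crystal cell, lamellocyte, fat body, neuron and muscle lists also overlapped between the groups. A sum is led by its brightest genes, such as srp for plasmatocytes and mys for lamellocytes, and can hide a shift in a dimmer marker. In RNA from whole cultures, fewer cells that express a gene and less of its RNA per cell cannot be told apart.

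Over all 20 RNAi arrays, Keap1, Gclc and Trxr1 were higher in CoVa RNAi cells and Prx6a was lower, while cnc, Gclm, Cat and Sod2 did not pass the test in a fit without the pairs. These were 3 of 8 member probesets higher and 1 of 8 lower, beside 11.3% of all tested probesets higher and 6.47% lower (limma, adjusted p under 0.05). The median log2 fold change of the 8 member probesets was 0.25 and that of all tested probesets 0.04. When each matched pair was entered as a block, 5 members were higher and 2 lower, with cnc and Gclm added on one side and Sod2 on the other, beside 25.8% of all probesets higher and 15.9% lower. The plot of signal on every array shows the widest gaps at 120 and 168 hr for Keap1 and Prx6a.

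**Figure D1:**
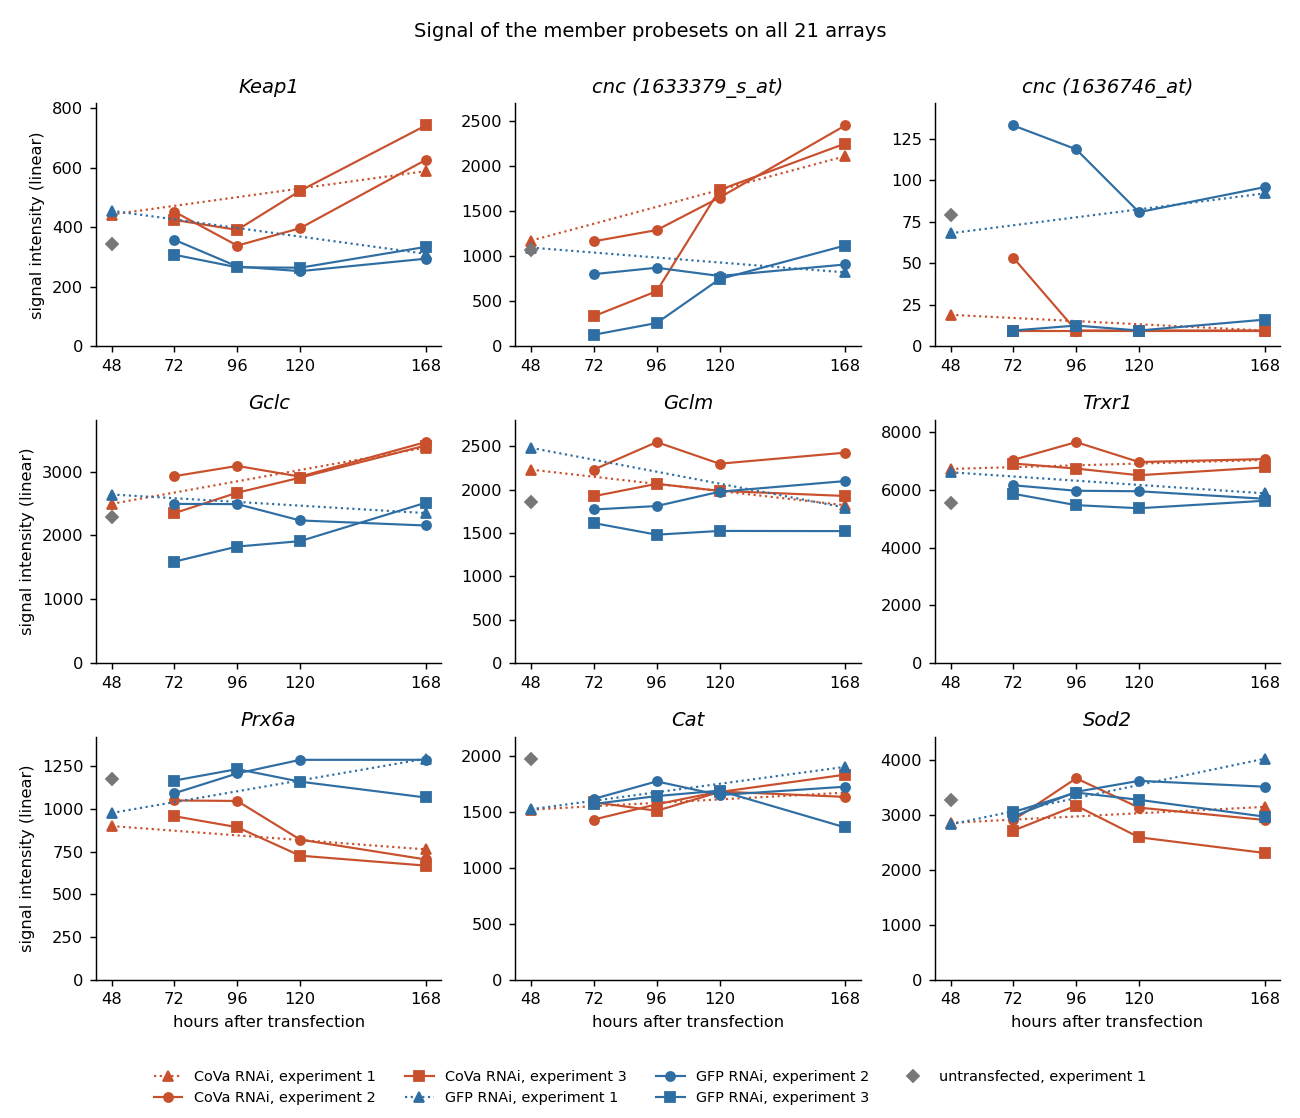
Signal intensity (linear scale) of the 9 member probesets against hours after transfection, with each point 1 array and lines joining arrays of one experiment; CoVa RNAi arrays, GFP RNAi arrays and the untransfected array have their own colours. Keap1 and the main cnc probeset reached 742 and 2451 on CoVa RNAi arrays at 168 hr, Prx6a sank to 668 there, and the ranges of Cat overlapped between the groups.

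Keap1, the adaptor that marks CncC for destruction, was read between 339 and 742 on CoVa RNAi arrays, with a median of 448, and between 253 and 456 on GFP controls, with a median of 301. In experiment 2 its signal at 72, 96, 120 and 168 hr was 452, 339, 397 and 626 after CoVa RNAi and 358, 269, 253 and 295 in the GFP controls. In experiment 3 the same times gave 425, 391, 523 and 742 after CoVa RNAi and 308, 266, 264 and 334 in the GFP controls. In both courses the CoVa RNAi array was the higher at every time, and 4 CoVa RNAi arrays, all from 120 or 168 hr, lay above every GFP control of any time. In experiment 1 the 48 hr arrays read 443 after CoVa RNAi and 456 in the GFP control, and the 168 hr arrays 589 and 311 in the same order. Keap1 was thus higher in 9 of 10 pairs, the 48 hr pair being the exception, with a log2 difference of 0.60 (SE 0.12, adjusted p = 0.00241, limma with Benjamini-Hochberg adjustment). The call was lost without experiment 2 (0.62, adjusted p = 0.0565), without experiment 3 (0.51, adjusted p = 0.0529) and without the 168 hr arrays (0.43, adjusted p = 0.0821).

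The cnc gene makes several proteins, of which CncC is the oxidant-responsive one, and its 2 probesets went opposite ways. The brighter probeset, 1633379_s_at, was read between 336 and 2451 on CoVa RNAi arrays, with a median of 1471, and between 130.2 and 1119.8 on GFP controls, with a median of 812. In experiment 2 its signal at 72, 96, 120 and 168 hr was 1167, 1291, 1651 and 2451 after CoVa RNAi and 802, 874, 782 and 909 in the GFP controls. The CoVa RNAi cells of this course climbed with time and the GFP controls stayed nearly level. In experiment 3 the corresponding signals were 336, 613, 1736 and 2250.4 after CoVa RNAi and 130.2, 260.4, 747 and 1119.8 in the GFP controls, so that both groups began low and climbed. The 48 hr pair of experiment 1 read 1174 after CoVa RNAi and 1097 in the GFP control, and its 168 hr pair 2110.4 and 822 in that order.

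The brighter cnc probeset was higher in CoVa RNAi cells in 10 of 10 pairs, a pattern that 9.65% of tested probesets shared, and 8 of its 10 CoVa RNAi arrays lay above every GFP control. Its log2 fold change was 0.94 (SE 0.38), the largest among the 8 tested member probesets over all arrays. The spread of its GFP controls was also the widest of the 8. Their coefficient of variation was 42.6%, which holds change with time as well as differences between experiments. The adjusted p was 0.0934 without a block (limma), 0.0481 with the experiment as a block, where 16.9% of probesets were higher, and 2.97e-04 with the matched pair as a block. Without experiment 3, whose first arrays were low in both groups, the fold change was 0.82 with an adjusted p of 0.0172.

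The dimmer cnc probeset, 1636746_at, reached 100 on 2 of 20 arrays and stayed out of the main tests. On CoVa RNAi arrays it read 19.0 at 48 hr in experiment 1 and 53.3 at 72 hr in experiment 2, and the other 8 CoVa RNAi arrays were at the lowest value of the table, 9.60. The GFP controls of experiment 1 read 68.1 and 92.1 at 48 and 168 hr, and those of experiment 2 read 133, 119, 80.8 and 95.8 at 72, 96, 120 and 168 hr. In experiment 3 the GFP controls read 9.60, 12.6, 9.60 and 16.1 at the same times. The probeset was lower after CoVa RNAi in 8 pairs and equal in 2, and its difference came from experiments 1 and 2, since in experiment 3 both groups were near the lowest value. With no filter on low values, over 18769 probesets, its adjusted p was 0.0441 (limma), and no fold is given because 8 of the 10 CoVa RNAi values were at the lowest value. Which cnc transcripts each probeset detects is not given in the sources used here.

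Gclc, the catalytic subunit of glutamate-cysteine ligase and the first step of glutathione synthesis, was read between 2349 and 3461 on CoVa RNAi arrays, with a median of 2924, and between 1589 and 2640.3 on GFP controls, with a median of 2292. At 168 hr the CoVa RNAi arrays of experiments 1, 2 and 3 read 3376, 3461 and 3408, and the GFP controls 2349, 2155 and 2511. All 3 CoVa RNAi arrays of that time were above all 3 controls, as was so for 22.7% of tested probesets, and among the members for Keap1, the brighter cnc probeset and Trxr1. Prx6a lay wholly below its controls at 168 hr, as 18.2% of tested probesets did. Over all arrays 8 of 10 CoVa RNAi arrays lay above every GFP control, and the exception among the pairs was again 48 hr, at 2494 after CoVa RNAi and 2640.3 in the control. The log2 fold change was 0.42 (SE 0.09, adjusted p = 0.00464, limma with Benjamini-Hochberg adjustment). The adjusted p was 0.0799 after scaling arrays to a common median, 0.119 without experiment 2 and 0.118 without the 168 hr arrays.

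Gclm, the modifier subunit that raises the activity of Gclc, was read between 1819 and 2546 on CoVa RNAi arrays, with a median of 2147, and between 1479.6 and 2480.2 on GFP controls, with a median of 1781. It was higher in 9 of 10 pairs, with the widest gaps at 96 hr, where CoVa RNAi arrays read 2546 and 2065 in experiments 2 and 3 and the GFP controls 1809.7 and 1479.6. At 168 hr in experiment 1 the signals nearly met, at 1819 after CoVa RNAi and 1793 in the control. The groups overlapped over most of their range, and 1 CoVa RNAi array exceeded every control. The log2 fold change was 0.25 (SE 0.09) with an adjusted p of 0.0539 without a block and 0.00686 with the matched pair as a block (limma). Its adjusted p crossed the threshold in 7 of 15 alternatives, over a range of 0.00686 to 0.403.

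Trxr1, the thioredoxin reductase, differed by a small and even amount. Its signal lay between 6506 and 7653 on CoVa RNAi arrays, with a median of 6938, and between 5363 and 6609 on GFP controls, with a median of 5871. At 48 hr in experiment 1, where CoVa was not lower, it read 6724 after CoVa RNAi and 6609 in the control, the closest pair of the 10. In experiment 3 it read 6912, 6736, 6506 and 6778 after CoVa RNAi and 5863, 5469.9, 5363 and 5622 in the GFP controls, at 72, 96, 120 and 168 hr. CoVa RNAi arrays were higher in all 10 pairs, and 9 of them lay above every GFP control. The log2 fold change was 0.24 (SE 0.04, adjusted p = 7.33e-04, limma with Benjamini-Hochberg adjustment), a ratio of means of 1.19. Scaling arrays to a common median ended the call (0.19, SE 0.09, adjusted p = 0.215), and so did leaving out experiment 2 (adjusted p = 0.0774) or the 168 hr arrays (adjusted p = 0.0546).

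Prx6a, a peroxiredoxin that reduces peroxides through a cysteine thiol, was the member that was lower. It was read between 668 and 1050.2 on CoVa RNAi arrays, with a median of 857, and between 977 and 1295 on GFP controls, with a median of 1188. In experiment 2 its signal at 72, 96, 120 and 168 hr was 1050.2, 1047, 821 and 705 after CoVa RNAi and 1092, 1208, 1288 and 1289 in the GFP controls. In experiment 3 the same times gave 958, 894, 727 and 668 after CoVa RNAi and 1167, 1234, 1160.3 and 1068 in the GFP controls. After CoVa RNAi the signal sank with time in both courses, whereas the controls ended higher than they began in experiment 2 and slightly lower in experiment 3, and the pair of experiment 1 at 168 hr read 764 after CoVa RNAi and 1295 in the control. Prx6a was lower in all 10 pairs, as were 5.95% of tested probesets, and 8 CoVa RNAi arrays lay below every GFP control. The log2 fold change was -0.46 (SE 0.08, adjusted p = 7.89e-04, limma with Benjamini-Hochberg adjustment), and of 15 alternative settings only leaving out the 168 hr arrays ended the call (-0.34, adjusted p = 0.0526).

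Cat, the catalase that splits hydrogen peroxide, averaged 1613 ± 114 on CoVa RNAi arrays and 1647 ± 146 on GFP controls (SD, n = 10 each). It was higher in 3 pairs and lower in 7, with a log2 difference of -0.03 (SE 0.06, adjusted p = 0.821, limma). The widest pair was experiment 3 at 168 hr, at 1835 after CoVa RNAi and 1363 in the GFP control, and the 168 hr pair of experiment 1 ran the other way, at 1674 and 1905 in the same order. The ranges of the groups overlapped over nearly their whole width, although at 96 hr both CoVa RNAi arrays, 1569.6 and 1512, lay below both GFP controls, 1775 and 1643.

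Sod2, the manganese superoxide dismutase of the mitochondrial matrix, averaged 2941 ± 371 on CoVa RNAi arrays and 3310 ± 366 on GFP controls (SD, n = 10 each). The pairs in which it was higher were early, 2858 after CoVa RNAi and 2829 in the control at 48 hr in experiment 1, and 3668 and 3423 in the same order at 96 hr in experiment 2. At 168 hr the CoVa RNAi arrays of experiments 1, 2 and 3 read 3148, 2909.6 and 2309 and the GFP controls 4025, 3516 and 2971, lower in each pair though the ranges overlapped. Over all arrays Sod2 was lower in 8 pairs with a log2 difference of -0.17 (SE 0.08). Its adjusted p was 0.143 without a block and 0.0229 with the matched pair as a block (limma).

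**Figure D2:**
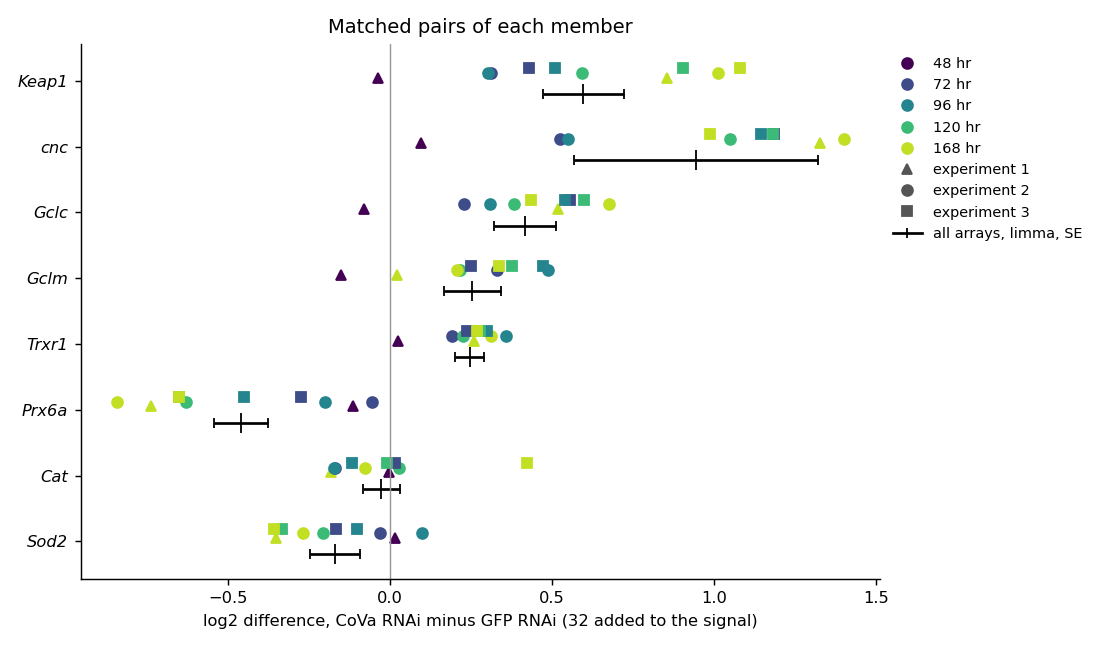
Log2 difference between the CoVa RNAi and GFP RNAi array of each matched pair, with 32 added to both signals, for the 8 tested member probesets; point colour gives the time, point shape the experiment, and the black bar the limma value over all arrays with its SE. All 10 pairs lie right of 0 for cnc and Trxr1 and left of 0 for Prx6a, and the 48 hr pair lies left of 0 for Keap1, Gclc and Gclm.

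The comparisons by time divide the same arrays, so they are no separate evidence. By time, no member passed at 72 or 96 hr, Keap1 and Prx6a passed at 120 hr, and Keap1, Gclc, Trxr1 and Prx6a passed at 168 hr. At 72 hr 0.0% of all probesets were higher and 0.0304% lower, and at 96 hr 1.39% higher and 0.122% lower, so that few probesets of any kind passed at those times (limma). At an unadjusted p under 0.05, 2 members were past the threshold at 72 hr, beside 2.47% of all probesets, and 4 at 96 hr, beside 9.04%. With the experiment as a block Gclm (0.48, adjusted p = 0.0179) and Trxr1 (0.33, adjusted p = 0.0208) passed at 96 hr, beside 4.49% of probesets higher. At 120 hr 1 member was higher and 1 lower, beside 2.32% and 0.730% of probesets, and Trxr1 joined with the experiment as a block (0.25, adjusted p = 0.0406, beside 6.63% of probesets higher).

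At 168 hr, with 3 arrays a group, 3 members were higher and 1 lower, beside 9.14% and 7.44% of all probesets. Keap1 had a log2 difference of 0.98 (SE 0.12, adjusted p = 1.60e-04, limma with Benjamini-Hochberg adjustment) and Prx6a of -0.74 (SE 0.10, adjusted p = 4.68e-04). Gclc stood at 0.54 (SE 0.17, adjusted p = 0.0429) and Trxr1 at 0.28 (SE 0.08, adjusted p = 0.0310). The fold change of cnc was larger than any of these, 1.24, but its SE was 0.60 and its adjusted p 0.204, and without experiment 3 it was 1.36 with an adjusted p of 0.00485. Gclm, Cat and Sod2 stood at 0.19, 0.05 and -0.33 without passing, and Sod2 passed with the experiment as a block (adjusted p = 0.00940, beside 14.6% of probesets lower). Without experiment 2 no probeset of the 9858 passed at 168 hr in either direction. Gclc and Trxr1 also missed the threshold with no filter on low values (adjusted p of 0.0784 and 0.0943) and with arrays scaled to a common median (0.456 and 0.764).

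**Figure D3:**
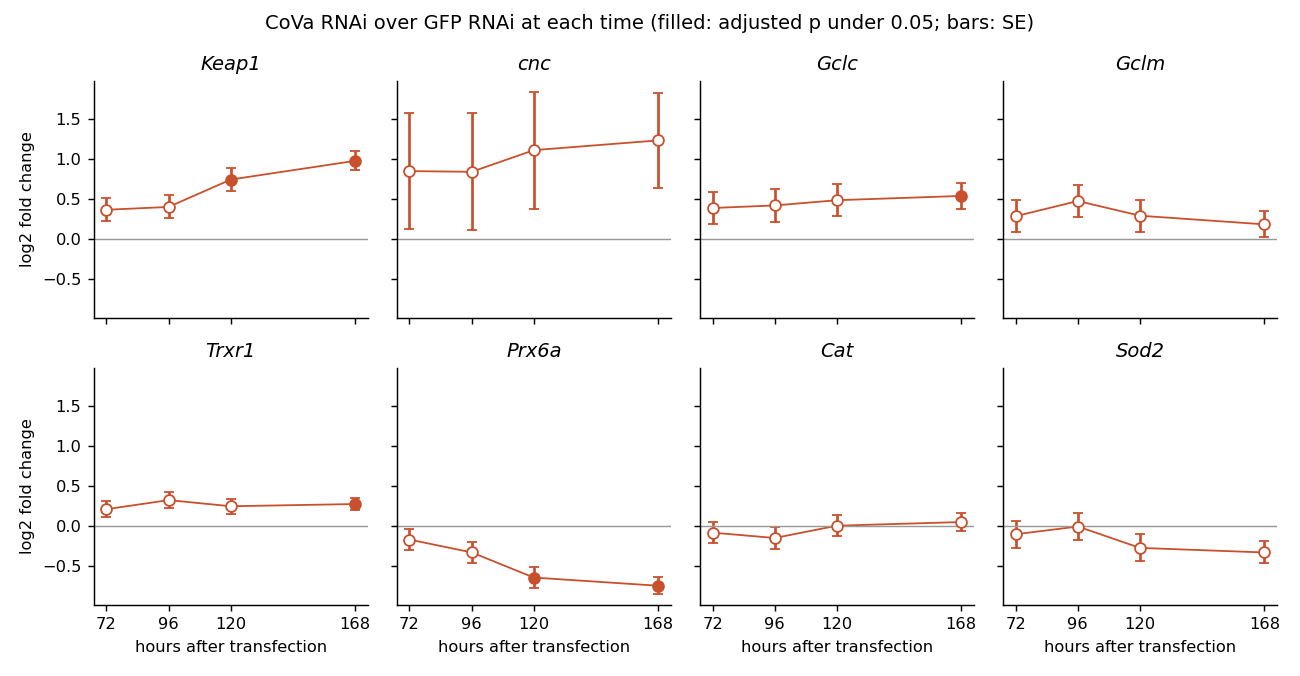
Log2 fold change of CoVa RNAi over GFP RNAi arrays at 72, 96, 120 and 168 hr for the 8 tested member probesets, with bars for the SE and filled points for an adjusted p under 0.05. Keap1 stands at 0.37, 0.40, 0.75 and 0.98 and Prx6a at -0.17, -0.33, -0.64 and -0.74, while Trxr1 stays between 0.21 and 0.33.

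A straight line through the 10 pair differences gave the change of the CoVa effect per 24 hr. Its slope was positive for Keap1 at 0.18 (SE 0.03, adjusted p = 0.00125, limma with Benjamini-Hochberg adjustment) and for cnc at 0.16 (SE 0.05, adjusted p = 0.0407). It was negative for Prx6a at -0.14 (SE 0.02, adjusted p = 0.00314) and for Sod2 at -0.07 (SE 0.02, adjusted p = 0.0396). These were 2 of 8 members in each direction, beside 11.7% of all probesets with a rising and 11.4% with a falling difference, or 1156 and 1123 probesets. With arrays scaled to a common median the same split was 688 and 1358. The slopes of Gclc (0.08, adjusted p = 0.0995), Trxr1 (0.03, 0.331), Gclm (0.01, 0.899) and Cat (0.03, 0.552) did not pass. Keap1 passed in each of 12 alternatives, Prx6a in all but the one without experiment 2 (adjusted p = 0.0579), Sod2 in 6 and cnc in 4. Without the 48 hr pair, for example, cnc had a slope of 0.11 and an adjusted p of 0.183.

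The direct comparison of the CoVa effect at 168 hr with that at 72 hr had 3 and 2 pairs to work with, and none of the 8 members passed it, beside 1.05% of all probesets with a larger and 0.619% with a smaller difference (limma). The difference was 0.61 for Keap1 (SE 0.19, adjusted p = 0.152) and -0.58 for Prx6a (SE 0.16, adjusted p = 0.122), the 2 of 8 members past an unadjusted p of 0.05, beside 11.1% of all probesets. With the experiment as a block Prx6a passed (adjusted p = 0.0182, beside 3.47% of probesets) and Keap1 had an adjusted p of 0.0521.

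Within the GFP controls, 168 hr against 72 hr, no member and no probeset passed (limma, 0.0% of 9858, with 747 probesets and no member at an unadjusted p under 0.05). The brighter cnc probeset had the widest difference of the members, 1.41 (SE 0.67, adjusted p = 0.604), carried by experiment 3, where the GFP controls read 1119.8 at 168 hr and 130.2 at 72 hr. Without experiment 2 a single GFP array, the low one of experiment 3, was left at 72 hr and was assumed to vary like the other groups. The difference was then 2.61 with an adjusted p of 0.00930, in a fit where 1050 of 9858 probesets were higher, and without experiment 3, again with a single array at 72 hr, it was 0.10 with an adjusted p of 0.884. The other 7 members differed by between -0.08 and 0.23 between these times. The single untransfected array at 48 hr gave 346 for Keap1, 1071 and 79.0 for the brighter and dimmer cnc probesets, and 2292 for Gclc. It gave 1861 for Gclm, 5538 for Trxr1, 1178 for Prx6a, 1978 for Cat and 3275 for Sod2. Except for Cat, which lay above its highest GFP control of 1905, these values were inside the range of the GFP controls.

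The depth of the CoVa knockdown differed between the longer courses. CoVa's mean log2 pair difference was -1.90 ± 1.03 in experiment 2 and -0.62 ± 0.20 in experiment 3 (SD, n = 4 pairs each). For Keap1 the same means were 0.55 ± 0.33 in experiment 2 and 0.73 ± 0.31 in experiment 3, and for cnc 0.88 ± 0.42 and 1.12 ± 0.09 in that order. Gclc averaged 0.40 ± 0.20 and 0.53 ± 0.07, Trxr1 0.27 ± 0.08 and 0.27 ± 0.03, and Prx6a -0.43 ± 0.37 and -0.51 ± 0.18. Gclm averaged 0.31 ± 0.13 in experiment 2 and 0.36 ± 0.09 in experiment 3, Cat -0.10 ± 0.09 and 0.08 ± 0.24, and Sod2 -0.10 ± 0.17 and -0.24 ± 0.13 in that order. No mean is given for the dimmer cnc probeset, since most of its CoVa RNAi values in experiment 2 were at the lowest value. It was lower after CoVa RNAi in each pair of experiment 2, and in experiment 3 both groups were near the lowest value. Each SD spans the 4 times of a course, so it holds change with time and is no measure of noise between courses. The difference between courses was not tested.

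Across the 20 RNAi arrays Keap1 and Prx6a ran opposite each other, with a Pearson correlation of log2 signal of -0.92 over all arrays, -0.84 within CoVa RNAi arrays and -0.81 within GFP controls. The brighter cnc probeset and Gclc ran together, at 0.88 over all arrays, 0.87 within CoVa RNAi arrays and 0.88 within GFP controls. Over all arrays these were the strongest correlations between tested members, so the pairs are picked. Within CoVa RNAi arrays and GFP controls in turn, this cnc probeset stood at 0.15 and 0.47 with Gclm and 0.06 and 0.27 with Trxr1. Keap1 stood at -0.46 and 0.53 with Gclm and -0.36 and 0.73 with Trxr1, in the same order. In each group the brighter cnc probeset and Gclc were both lowest in experiment 3 at 72 hr. Their correlation without those arrays was not computed. These values describe the arrays only, since arrays share time courses, hybridization and normalization.

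Likeness to each member was taken as the Pearson correlation of log2 signal over the 20 RNAi arrays, among probesets of a single gene, and was given no test. Keap1 ran closest to CG11414, tapas and CG31678, at 0.93, 0.93 and 0.92, and cnc to spir, an actin nucleator, mRpS5, a mitochondrial ribosomal protein, and CASK, a membrane scaffold kinase, at 0.98, 0.98 and 0.97. The cnc likeness was as high within GFP controls, at 0.98 for each of the 3 genes. Among those controls cnc was far lower at 72 and 96 hr in experiment 3, at 130.2 and 260.4, than on the other arrays. The likeness without these arrays was not computed. Gclc ran closest to CG6051, sdk and EloA (each 0.93), and Gclm to CG14414, Den1 and l(3)73Ah at 0.91, 0.90 and 0.89. For Trxr1 the closest were CG5003, mei-9, a DNA repair nuclease, and Tom70, a mitochondrial import receptor, at 0.92, 0.91 and 0.90. Prx6a ran with CG11788, Hou and the splicing factor Sf3b5 at 0.97, 0.95 and 0.95, and Sod2 with ND-15, a complex I subunit, CG14483 and AlkB at 0.93, 0.91 and 0.91. Cat had no close companion: the nearest, Jheh2, stood at 0.77, followed by CG43103 at 0.67 and sut1 at 0.65.

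The wider set of redox genes was read from 7 lists, also chosen with earlier results known, each gene by its brightest probeset. Beside the members they held 34 tested genes, of which 8 were higher and 2 lower over all arrays, beside 11.3% and 6.47% of all probesets, and 7 higher and 1 lower at 168 hr, beside 9.14% and 7.44% (limma, adjusted p under 0.05). With the matched pair as a block 14 were higher and 5 lower, beside 25.8% and 15.9%, so the counts lower were near the share of all probesets. Without experiment 2 there were 2 higher and none lower, beside 251 higher and 97 lower of all 9858 probesets. The split among all probesets over all arrays was 1116 higher and 638 lower, and 794 and 739 after quantile normalization.

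Of 9 regulators of the Keap1-CncC switch, all tested, 2 were higher and none lower, beside 11.3% and 6.47% of all probesets. Their median was 0.15. Beside Keap1 the gene that was higher was ref(2)P, the fly p62, an autophagy receptor, at 4277 ± 799 on CoVa RNAi arrays and 2506 ± 572 on GFP controls (SD, n = 10 each). It was higher in 10 of 10 pairs with a log2 difference of 0.77 (SE 0.12, adjusted p = 2.47e-04, limma with Benjamini-Hochberg adjustment), and 1.05 at 168 hr. The sestrin Sesn averaged 325 ± 114 on CoVa RNAi arrays and 434 ± 148 on GFP controls, with an adjusted p of 0.222, and 0.0239 with the matched pair as a block. The small Maf partner maf-S, named after its values were seen, was lower in all 10 pairs by -0.20 (SE 0.07), with an adjusted p of 0.0525 and of 0.00103 with the matched pair as a block. The ligase scaffold Cul3 (0.19, adjusted p = 0.470) and dj-1beta (0.15, adjusted p = 0.316) were higher in 9 and 10 of 10 pairs, and with the matched pair as a block their adjusted p-values were 0.0269 and 0.00901. Roc1a and DJ-1alpha passed in neither fit.

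In glutathione synthesis and breakdown 4 of 10 listed genes were tested, with a median of 0.31. Gclc was higher and CG4829 lower, beside 11.3% and 6.47% of all probesets. CG4829, a gamma-glutamyl transferase by homology, averaged 219 ± 166 on CoVa RNAi arrays and 735 ± 230 on GFP controls and was lower in 10 of 10 pairs (-1.77, SE 0.33, adjusted p = 9.49e-04, limma), reaching -2.95 at 168 hr, with an adjusted p of 0.0626 over all arrays without experiment 2. CG10365, listed with the glutathione-degrading enzymes, averaged 827 ± 261 on CoVa RNAi arrays and 610 ± 102 on GFP controls, with an adjusted p of 0.126 over all arrays. It passed at 168 hr (0.68, adjusted p = 0.00873), and over all arrays with the matched pair as a block (adjusted p = 0.0105).

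Of the thioredoxins, peroxiredoxins and glutaredoxins 10 genes were tested, with a median of 0.09. Of these, 2 were higher and 1 lower, beside 11.3% and 6.47% of all probesets. Beside Trxr1 and Prx6a this was SelR, which reduces oxidized methionine, at 1146 ± 156 on CoVa RNAi arrays and 914 ± 83.6 on GFP controls, higher in 10 of 10 pairs (0.31, SE 0.07, adjusted p = 0.00652, limma), a call lost without experiment 2 and without the 168 hr arrays (adjusted p = 0.118). The other methionine reductase, MsrA, averaged 418 ± 102 on CoVa RNAi arrays and 489 ± 205 on GFP controls (adjusted p = 0.741). In superoxide and hydrogen peroxide removal 5 genes were tested and none passed, with a median of -0.05, and the methods' t-test on linear values passed neither Cat nor Sod2 after Benjamini-Hochberg adjustment. Without adjustment Sod2 alone had a limma p under the threshold, 0.0388. The peroxidase Pxn, which is also a plasmatocyte marker, averaged 871 ± 760 on CoVa RNAi arrays and 1207 ± 776 on GFP controls (adjusted p = 0.404, and 0.0267 with the matched pair as a block). Irc stood at -0.05 and Ccs at -0.04, with adjusted p-values of 0.764 and 0.872.

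Of 15 fly genes reported to respond to CncC 13 were tested, 6 higher and 1 lower over all arrays, beside 11.3% and 6.47% of all probesets, and 7 higher and 0 lower at 168 hr, beside 9.14% and 7.44%, with a median of 0.24 over all arrays. Without the members 9 remained, 3 higher and 1 lower. The glutathione transferase GstD5 averaged 709 ± 382 on CoVa RNAi arrays and 281 ± 107 on GFP controls (1.15, SE 0.27, adjusted p = 0.00610, limma), and 2.03 at 168 hr. GstD2 averaged 288 ± 210 on CoVa RNAi arrays and 121 ± 56.3 on GFP controls (0.99, SE 0.27, adjusted p = 0.0157). The GstD genes are close copies of one another, and probes of one may read another. Without experiment 2 the log2 fold change was 1.37 for GstD5 (adjusted p = 0.0707) and 1.25 for GstD2 (adjusted p = 0.112), larger than with it, and without experiment 3 it was 0.76 (adjusted p = 0.0885) and 0.50 (adjusted p = 0.111), smaller. GstD1, the most used reporter of CncC and named after its values were seen, averaged 8019 ± 674 on CoVa RNAi arrays and 7718 ± 683 on GFP controls (0.06, adjusted p = 0.616). The cytochrome P450 gene Cyp12d1-d passed at 168 hr (0.43, adjusted p = 0.0220), and Cyp6a8, also named after its values were seen, was lower at 552 ± 189 on CoVa RNAi arrays and 837 ± 247 on GFP controls (-0.59, adjusted p = 0.0325, and 0.246 without experiment 2).

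The NADPH that thioredoxin reductase spends comes in part from malic enzymes and isocitrate dehydrogenase. All 3 such genes that were tested were higher, of 8 listed, with a median of 0.46, beside 11.3% of all probesets. At 168 hr 2 of the 3 were higher, beside 9.14%. Zw and Pgd, on the same list, had no probeset annotated to them alone. Idh averaged 5578 ± 393 on CoVa RNAi arrays and 4045 ± 425 on GFP controls (0.46, SE 0.06, adjusted p = 7.23e-05, limma) and was higher in 10 of 10 pairs. Men averaged 1393 ± 317 on CoVa RNAi arrays and 979 ± 158 on GFP controls (0.48, adjusted p = 0.0110), and Men-b 1718 ± 433 and 1243 ± 203 in the same order (0.43, adjusted p = 0.0333). Without experiment 2 Men stood at 0.55 (adjusted p = 0.0870) and Men-b at 0.50 (adjusted p = 0.149), and without experiment 3 Men stood at 0.33 (adjusted p = 0.164) and Men-b at 0.34 (adjusted p = 0.139). Among iron storage and haem breakdown genes 3 were tested and 1 was higher, beside 11.3% of all probesets. It was the ferritin heavy chain Fer1HCH, higher in 10 of 10 pairs. Its signal was 8232 ± 859 on CoVa RNAi arrays and 6819 ± 773 on GFP controls (0.27, SE 0.07, adjusted p = 0.0124, limma, and 0.103 without experiment 2). The light chain Fer2LCH stood at 0.18 (adjusted p = 0.469) and Fer3HCH at 0.05 (adjusted p = 0.890).

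**Figure D4:**
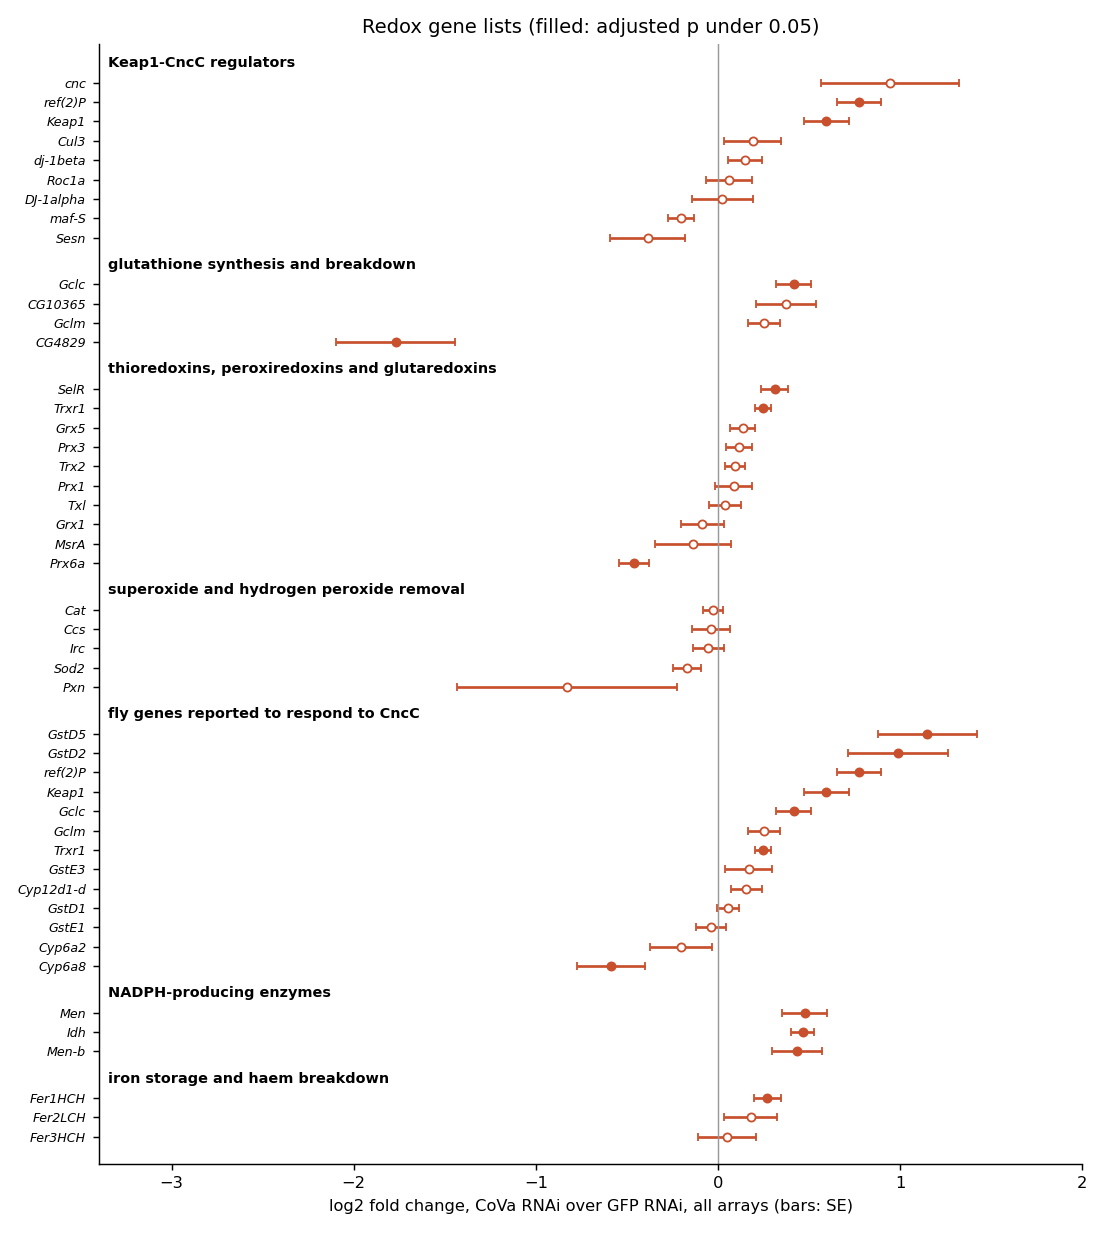
Log2 fold change of CoVa RNAi over GFP RNAi arrays with its SE for the tested genes of the 7 redox lists, over all arrays, with filled points for an adjusted p under 0.05. CG4829 lies farthest to the left at -1.77 and GstD5 farthest to the right at 1.15, and all 3 NADPH-producing enzymes are filled.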

How the data were processed

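RNA of 21 S2 cell samples was hybridized to Affymetrix Drosophila Genome 2 arrays. The deposited values are signal intensities on a linear scale, 1 per probeset and array. Per the methods, the authors scanned with the Gene Chip Operating System and used dChip for normalization, with the median-intensity array as baseline. The submitters' processing notes also name MAS5, and the role of each is not fully stated. The lowest value, 9.60, acts as a floor, so that a dim probeset's change can be cut short, and was shared by 4.23% to 7.71% of probesets per array. Arrays have no read depth, and their number limits the precision.

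The 183 control probesets were left out. Of the 18769 others, 13646 carried 1 gene symbol in the platform annotation, 402 several and 4721 none. The CoVa probeset is annotated under the symbol COX5A. The 9858 probesets with a signal of 100 or more on 3 or more of the 20 RNAi arrays were tested on log2(signal + 32), so that fold changes of dim genes are understated, with limma 3.58.1 (lmFit and eBayes, R 4.3.3) and Benjamini-Hochberg adjustment over all of them. The all-array fit had 2 group means. The times were contrasts in 1 fit with a mean per condition and time, and the trend was a line through the 10 pair differences per 24 hr. Both steps were tested on simulated data with independent arrays, which did not model the likeness of arrays from one course. The untransfected array entered no test.

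Arrays of the same experiment number and time come from one time course, and their deviations from the group means correlated by 0.582 to 0.956, so pairs or experiments were also fitted as a block. Other alternatives were normalization, the value added before log2, the filter, eBayes settings, left-out experiments and times, and the methods' t-test, which is Welch-modified on linear values. The gene lists' alternatives were chosen after seeing the data. Members and lists were chosen with earlier results of these data known. Named were all member probesets, CoVa, in each list the 4 genes of largest absolute fold change and any that passed at 168 hr, and the 3 probesets most like each member.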

Additional observations from a re-analysis of the deposited data

Results flagged for a closer look

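Each member probeset was screened for an array far from the rest of its group, in 18 groups of 10 arrays, and chance alone flags about 1 in 20 groups. In the GFP controls the 48 hr array of experiment 1 had the highest Keap1 signal, 456, with a gap to the next array of 0.481 of the group's range. In CoVa RNAi cells the 72 hr array of experiment 2 had the highest signal of the dimmer cnc probeset, 53.3, with a gap of 0.784 of the range, where 8 of the other arrays were at 9.60. Also in CoVa RNAi cells, the 96 hr array of experiment 2 had the highest Trxr1 signal, 7653, with a gap of 0.512 of the range. Outside the comparisons, the untransfected array read 1978 for Cat, above the highest GFP control of 1905. This is 1 array, and its difference from the transfected cells was not tested.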

How the results depend on the processing

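Each member value was recomputed under up to 15 alternatives. Of 891 member and CoVa values so obtained, 796 kept their direction and their side of the threshold, 51 lost the call, 20 gained it and 24 changed sign; of 540 values of list genes the numbers were 449, 49, 34 and 8. The cause of these changes was not tested. At 72, 96 and 120 hr, leaving out experiment 2 or 3 leaves 1 array a group, which is assumed to vary like the other groups.

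Over all arrays the count of members higher, 3, became 1 with arrays scaled to a common median, 5 with the experiment as a block, 5 with the matched pair as a block, 0 without the 168 hr arrays and 0 to 4 without 1 experiment. Among all probesets the count higher, 1116 of 9858, became 555 of 9756, 1667, 2539 and 251 in the same order. Without 1 experiment it was 251 to 964. The count lower, 1 of 8, became 2 of 9 with the common median, with no filter and with quantile normalization. There the dimmer cnc probeset entered the test and was the added call. Before scaling it reached 100 on GFP arrays only, and its highest CoVa RNAi signal was 53.3. Under either scaling it could thus pass the filter only through GFP arrays, and its call there is no support for a change. The count lower was 2 of 8 with the pair block, where Sod2 was added, 0 without the 168 hr arrays, and stayed 1 without any 1 experiment. Among all probesets the count lower, 638 of 9858, became 373 of 9756, 519 of 18769 and 739 of 9766 in the first settings named. It was 1571 with the pair block, 75 without the 168 hr arrays and 97 to 447 without 1 experiment. At 96 hr the count higher, 0, became 1 with eBayes trend and robust settings and 2 with the experiment as a block. Among all 9858 probesets it went from 137 to 163 and 443 in these settings. At 120 hr the count higher, 1, became 0 with the common median, 2 with the experiment block and 0 to 1 without 1 experiment, and the count lower, 1, became 0 with the common median, 0 with no filter and 0 to 1 without 1 experiment. Among all probesets at 120 hr the count higher, 229 of 9858, became 86 of 9756 with the common median and 654 with the experiment block. The count lower there, 72, became 12 of 9756 with the common median and 27 of 18769 with no filter. At 168 hr the count higher, 3, became 1 with the common median, 1 with no filter and 0 to 3 without 1 experiment, and the count lower, 1, became 2 with the experiment block and 0 to 1 without 1 experiment. Among all probesets at 168 hr the count higher, 901, became 372 of 9756, 784 of 18769 and 0 to 1549 in the same order. The count lower, 733, became 1443 with the experiment block and 0 to 950 without 1 experiment. For the CoVa effect at 168 hr against 72 hr the count lower, 0, became 1 with the experiment block, beside 61 and 342 of 9858 probesets. Within GFP controls the count higher was 0 to 1 without 1 experiment. In the time trend the count of rising members, 2, became 1 with 1 added before log2, with the common median, with eBayes trend and robust settings, with no filter, with quantile normalization and without the 48 hr arrays, and 1 to 3 without 1 experiment. Among all probesets the rising count, 1156, became 1093, 688, 1087, 800, 968 and 886 in the same order. Without 1 experiment it was 334 to 719. The count of falling members, 2, became 1 with no filter, with quantile normalization and without the 48 hr arrays, and 0 to 1 without 1 experiment. Among all probesets the falling count, 1123, became 688 of 18769 with no filter and 1282 of 9766 with quantile normalization. Without 1 experiment it was 249 to 877. The block changed no call of a member beside those given here and in the results.

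Of the 34 list genes, the count higher over all arrays, 8, became 5 with the common median, 14 with the pair block, 2 without the 168 hr arrays and 2 to 7 without 1 experiment. Among all probesets the count higher, 1116 of 9858, became 555 of 9756, 2539, 251 and 251 to 964 in the same order. The count lower, 2, became 1 with the common median, 1 with no filter, 5 with the experiment block, 5 with the pair block, 0 without the 168 hr arrays and 0 to 2 without 1 experiment. Among all probesets the count lower, 638, became 373 of 9756, 519 of 18769, 1032, 1571, 75 and 97 to 447 in the same order. At 168 hr the count higher, 7, became 3 with the common median, 11 with the experiment block and 0 to 8 without 1 experiment, and the count lower, 1, became 5 with the experiment block and 0 to 6 without 1 experiment. Among all probesets at 168 hr the count higher, 901, became 372 of 9756, 1843 and 0 to 1549 in the same order. The count lower, 733, became 1443 and 0 to 950.

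The values that changed sign were small and did not pass, except MsrA at 168 hr, which was -0.45 without experiment 3 (adjusted p = 0.0354, limma) and 0.29 without experiment 1. Leaving out 1 experiment, Cat ranged between -0.097 and 0.020 over all arrays. At 72 hr its range was -0.17 to 0.013, for 120 hr it was -0.010 to 0.026, and for 168 hr it was -0.13 to 0.17, and Sod2 at 96 hr between -0.10 and 0.10. In the effect at 168 hr against 72 hr cnc ranged between -0.026 and 0.84 and Gclc between -0.078 and 0.37, and within GFP controls Keap1 between -0.22 and 0.061, Gclc between -0.15 and 0.60, Cat between -0.055 and 0.16 and CoVa between -0.029 and 0.038. The trend of Gclm ranged between -0.021 and 0.029 and that of Cat between -0.0088 and 0.073, and MsrA over all arrays between -0.41 and 0.024. With the common median Cat became -0.025 at 120 hr and -0.067 at 168 hr, the effect differences of Gclc, Trxr1 and Cat became -0.0024, -0.090 and -0.020, the Gclm trend -0.015, and at 168 hr MsrA -0.094 and Irc -0.071. With quantile normalization Cat at 120 hr became -0.030, Fer3HCH -0.040 and MsrA at 168 hr -0.013, and within GFP controls Gclm became -0.047, Prx6a -0.031 and Cat -0.082. Without the 168 hr arrays Ccs became 0.014 and Fer3HCH -0.011, and without the 48 hr arrays the Gclm trend became -0.045.

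Scaling moved the split of all probesets at 168 hr, which was 901 higher and 733 lower, to 372 and 391 with the common median and 671 and 794 with quantile normalization. Over all arrays the common median gave 555 higher and 373 lower, and in the trend quantile normalization gave 968 rising and 1282 falling. Over all settings the count of probesets over all arrays ran between 251 and 2539 higher and between 75 and 1571 lower. The dimmer cnc probeset was at the lowest value on 8 CoVa RNAi and 2 GFP arrays, so its signal over background limits it to an order. The methods' t-test was applied to the tested probesets by p alone, without the fold and difference criteria of the methods. It called 2971 probesets at an unadjusted p under 0.05. After Benjamini-Hochberg adjustment it called 1692, among them Keap1, Gclc, Trxr1 and Prx6a.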
